A study of Mus musculus with 2 samples.

Results

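Caloric restriction in hearts whose cardiomyocytes lack Sirt1 was read from 1 two-colour oligonucleotide array that set a restricted heart (CR) against a freely fed heart (ad libitum, AL). Both hearts came from male C57BL/6J mice with a cardiomyocyte-specific Sirt1 knockout, described as 6 months old, and the feeding regimes lasted 3 months, with food reduced by 40% in the CR mouse. RNA of the AL heart carried Cy5 and RNA of the CR heart carried Cy3. The series holds 1 further array, of an AL and a CR heart from the corresponding control mice, which is used here only beside the knockout values. The sources used here name neither the driver of the deletion nor the hour at which the hearts were taken.

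Members were the probes whose signal lay above the blank spots of the array in both knockout hearts, 16548 of 23473 probes. They stood for 12142 of the 16388 genes that carry a symbol. A signal is given here as spot brightness above the blank spots, in scanner units. The log2 value of a gene is CR over AL after normalization within the array, so that 1 is a doubling in the CR heart and -1 its opposite. It is not the plain ratio of the printed signals, because the dyes differ in brightness and the correction draws dim genes towards 0. Each feeding regime was measured in 1 heart and the dyes were not swapped, so diet, dye and the individual mouse cannot be told apart, and no difference has a test or a replicate error. The only repeated measurements were technical. The 24 spots of each of a pair of positive controls had log2 SDs of 0.0731 and 0.0883, and the 145 genes read by several probes had a median range between probes of 0.123.

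Sirt1 encodes a nuclear deacetylase that uses NAD and acts on histones and on regulators such as FOXO factors, PGC-1alpha and p53. Restricted feeding raises circulating glucocorticoid, lowers insulin, shifts the timing of clock genes and moves the heart further towards fatty acid fuel. FOXO factors switch on genes of protein breakdown and stress defence when insulin is low, and the glucocorticoid receptor switches on genes such as Tsc22d3. Matrix genes are read mostly in fibroblasts, complement C1q and class II antigen presentation genes mostly in macrophages, and sarcomere genes in cardiomyocytes.

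In the knockout pair the CR heart had higher signals than the AL heart for most measured genes of the sarcomere and Z-disc list and of the glucocorticoid-responsive and FOXO-responsive lists, and for the protease inhibitors Timp3 and Timp4. It had lower signals for most genes of the fibrillar collagen and processing list, class II antigen presentation genes and macrophage markers. Lrrc10 had the highest log2 value (1.64) and Col3a1 the lowest (-2.30). The bulk of the genes stayed close to 0: 19 genes (0.156% of those measured) stood 2-fold or more above the AL heart and 13 (0.107%) 2-fold or more below it. At 1.5-fold there were 93 higher (0.766%) and 92 lower (0.758%). Above 0 lay 50.2% of the genes and below it 49.8%.

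**Figure D1:**
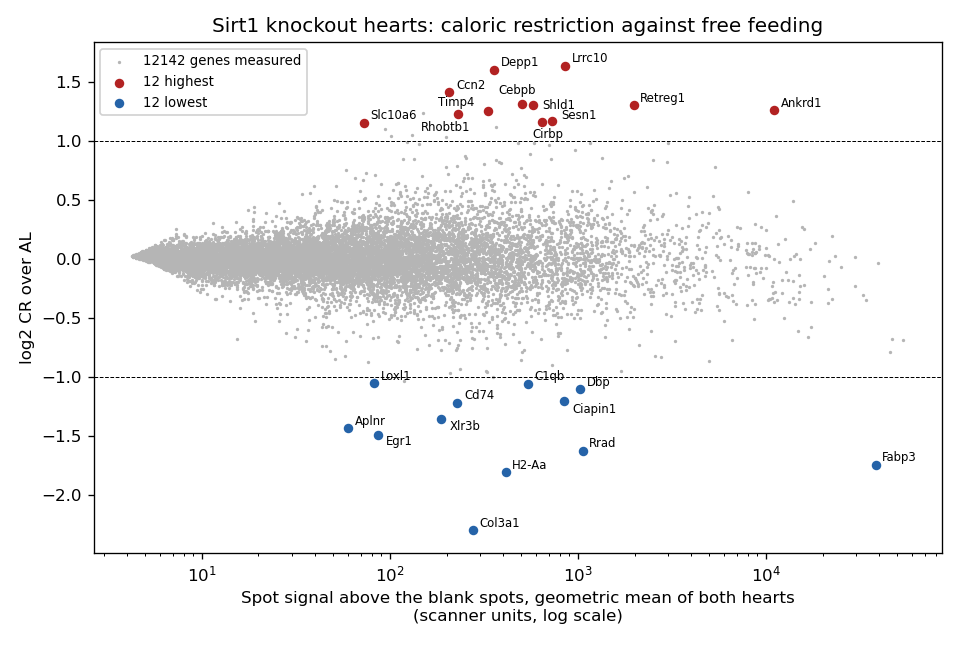
Each point is a gene measured in both knockout hearts. The horizontal axis is its spot signal (geometric mean of both hearts, scanner units, log scale) and the vertical axis its log2 CR over AL value, with dashed lines at 2-fold. The 12 highest and 12 lowest ranked genes are named, from Lrrc10 at 1.64 to Col3a1 at -2.30, and the cloud of points widens towards brighter spots.

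Spread depended on brightness, and the correction, which draws dim genes towards 0, itself narrows the dim classes. When the genes were split by signal into 4 equal classes, the SD of the log2 values across genes was 0.078 in the dimmest class and 0.289 in the brightest. Of the 2-fold genes, 9 lay in the third class and 23 in the brightest. Among the 6071 genes at or above the median signal, 0.313% were past 2-fold higher and 0.214% past 2-fold lower, and 1.52% and 1.40% past 1.5-fold. Sirt1 itself had a signal of 73.6 in the AL heart and 127 in the CR heart, with a log2 value of 0.43. On the control array the values were 76.3, 147 and 0.42. It is unknown here whether this probe falls inside the deleted stretch, and whole hearts hold other cells that keep the gene, so this reading checks nothing about the deletion.

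Of the 12 highest genes, 3 act in the contractile cell or in its scaffold and response to load. Lrrc10, a leucine-rich repeat protein of the cardiomyocyte, had a signal of 440 in the AL heart and 1658 in the CR heart. Ankrd1, a stretch-responsive partner of titin, read 6568 in the AL heart and 18517 in the CR heart, a log2 value of 1.27. Ccn2, a secreted matricellular protein also called connective tissue growth factor, read 106 and 404, a log2 value of 1.42. Each had the brighter spot in the CR heart, although the value of Ccn2 was 0.57 when the local background around each spot was subtracted.

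Another group of the highest genes belongs to fasting and stress responses. Depp1, a FOXO-induced regulator of autophagy, read 179 in the AL heart and 716 in the CR heart (log2 value 1.61). Cebpb, a transcription factor of fasting and inflammation, read 289 and 877 (1.31). Retreg1, a receptor that delivers endoplasmic reticulum to autophagy, read 1165 and 3349 (1.31). The CR spot was brighter for each of them under every processing tried. Sesn1, a stress-induced inhibitor of the growth kinase complex mTORC1, read 443 and 1185 (1.17). Cirbp, an RNA-binding protein induced by cold, read 396 and 1057 (1.17). With the local background subtracted both kept a value above 0 but no longer reached 2-fold.

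The remaining high genes have varied roles. Timp4, a metalloprotease inhibitor abundant in heart, read 190 and 578 (1.26), and 0.60 with the local background subtracted. Shld1, a subunit of the shieldin complex at DNA breaks, read 332 and 992 (1.31). Rhobtb1 read 130 and 407 (1.23). Both were brighter in the CR heart under every processing tried. Slc10a6, a carrier of sulphated steroids, read 34.3 and 153 (1.16), and its value was 0.38 with the local background subtracted. The other 7 genes past 2-fold were Ndrg4, Timp3, Arrdc2, Fmo2, Prodh, Gsta3 and a clone-named gene. Of these, Ndrg4, Fmo2, Prodh and the clone-named gene lay outside the naming rule and are named after their values were seen.

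Among the 12 lowest genes, matrix and antigen presentation stood first. Col3a1, a fibrillar collagen of compliant tissue, read 703 in the AL heart and 109 in the CR heart, a log2 value of -2.30, and -1.64 with the local background subtracted. H2-Aa, the class II alpha chain, read 808 and 211 (-1.81, or -0.91 with that subtraction). Cd74, the invariant chain that escorts class II, read 373 and 140 (-1.22). All of them had lower CR values under every processing tried. C1qb, a chain of complement C1q, read 771 and 379 (-1.06). Loxl1, which cross-links elastin, read 147 and 45.8 (-1.05, or -0.62 with the local background subtracted).

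Fabp3, the fatty acid carrier of the cardiomyocyte cytosol, read 64275 in the AL heart and 22845 in the CR heart (-1.74). Its AL spot lay close to the upper limit of the scanner, 65535 units. Rrad, a small GTPase that restrains L-type calcium channels, read 1814 and 618 (-1.63). Rrad was the 1 ranked gene whose direction depended on the processing: with the local background subtracted it was 0.43. Egr1, an immediate early transcription factor, read 197 and 37.9 (-1.49, or -0.96 with that subtraction). Aplnr, the apelin receptor of endothelial cells, read 152 and 23.8 (-1.43, or -0.42 with local background subtracted).

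Ciapin1, a factor of iron-sulphur cluster assembly, read 1244 and 569 (-1.20), and -1.80 with the local background subtracted. Dbp, a clock output factor that binds D-boxes, read 1456 and 725 (-1.11). Xlr3b read 333 and 105 (-1.35), and as a member of a family of near-identical X-linked copies its probe may read several of them. The AL heart was the brighter one for each of these genes. The only other gene past 2-fold lower was Tyrobp, a signalling adaptor of macrophages, at 196 and 73.1 (-1.03).

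**Figure D2:**
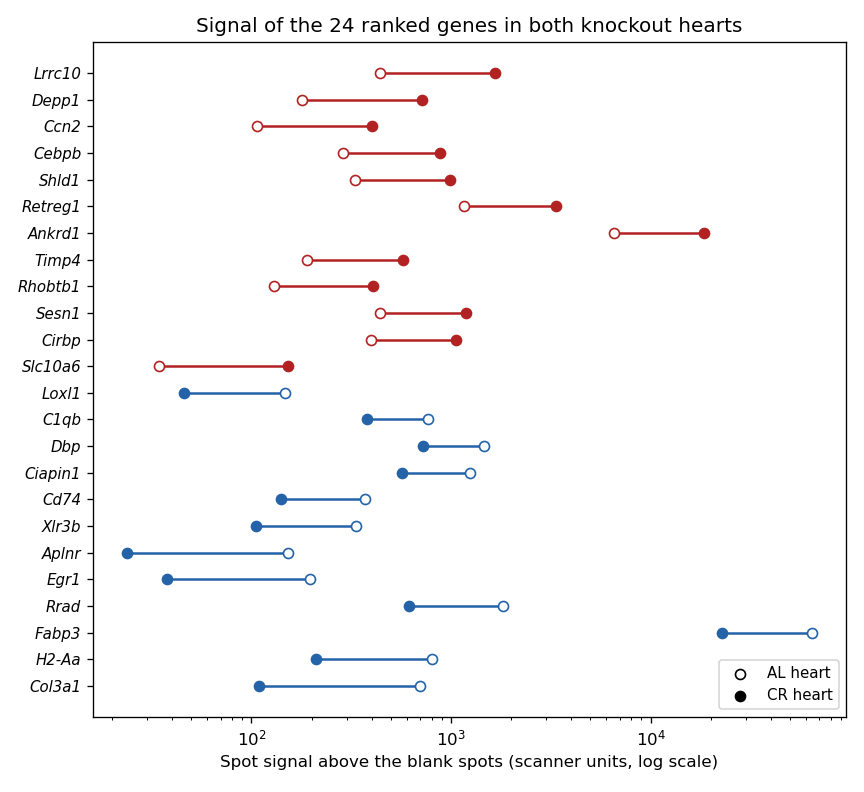
The spot signal above the blank spots (scanner units, log scale) of each ranked gene is drawn for the AL heart (open) and the CR heart (filled) of the knockout array, with genes ordered by log2 CR over AL. Lrrc10 runs from 440 to 1658 and Col3a1 from 703 to 109.

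**Figure D3:**
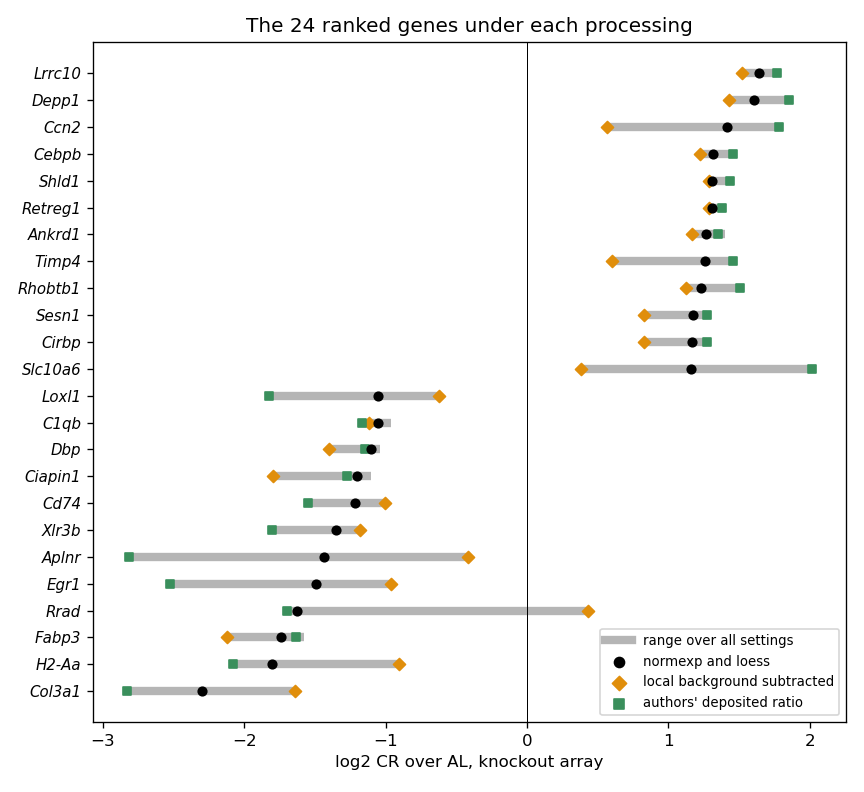
For each ranked gene the grey bar spans its log2 CR over AL values on the knockout array across all processings tried, with the value used in the text (normexp and loess), the value after subtraction of the local background and the authors' deposited ratio marked. All bars except that of Rrad, which reaches 0.43, stay on 1 side of 0.

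The list of fibrillar collagens, the load-bearing part of the matrix, and their processing enzymes was mostly lower in the CR heart. It also holds genes of collagens VI, VIII and XIV. Of 19 measured members of the list, 16 were below 0 and 7 were at least 1.5-fold lower, against 49.8% and 0.758% of all genes, and the median was -0.25 against 0.00 for all genes. Besides Col3a1, Col6a1 (a collagen of fine microfibrils) read 125 in the AL heart and 46.7 in the CR heart, a log2 value of -0.87. Col1a2, a chain of type I collagen, read 194 and 99.6 (-0.76), but its value was -0.02 with the local background subtracted. Col5a2, which nucleates collagen fibrils, read 90.2 and 37.6 (-0.69). No member of the list was 1.5-fold higher. In whole hearts, fewer cells of a type and less RNA per cell cannot be told apart.

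The other matrix lists lay closer to 0. Among 15 basement membrane genes, 9 were below 0, close to the 49.8% of all genes, and the median was -0.04. However, 4 were at least 1.5-fold lower, against 0.758% of all genes. On the control array 12 of the 15 were below 0 and none was 1.5-fold lower. Those 4 were Col4a2 (307 and 141, -0.97), Sparc (966 and 550, -0.90), Nid1 (387 and 256, -0.61) and Lamc1 (237 and 151, -0.59), which supply collagen IV, a collagen-binding glycoprotein, nidogen and a laminin chain. Of these, Sparc was -0.22 with the local background subtracted. Crosslinkers, elastic fibre genes and proteoglycans had 17 of 24 members below 0 and a median of -0.19. Fbn1, the fibrillin of microfibrils, read 97.7 and 34.1 (-0.82), and Mfap5, a microfibril partner, read 273 and 157 (-0.71). Tgm2, a transglutaminase that cross-links matrix proteins, lay on the other side of 0, at 760 and 1296 (0.58).

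The mixed list of matricellular proteins, TGF-beta components and proteases held single genes on both sides. Timp3, a matrix-bound metalloprotease inhibitor, read 223 in the AL heart and 597 in the CR heart (1.12), which placed it beside Timp4. Mmp2, the gelatinase those inhibitors act on, read 154 and 78.6 (-0.71). Over the list, 9 of 28 members were above 0 and 19 below, with a median of -0.05. Its 3 members at least 1.5-fold higher, against 0.766% of all genes, were Ccn2, Timp4 and Timp3.

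Marker lists of fibroblasts and macrophages were lower too, but share members with the lists above and below. Of the 14 fibroblast markers, 7 are also in a matrix list, among them all 4 that were at least 1.5-fold lower, and of the other 7 markers 5 were below 0. Of the 17 macrophage markers 1, Ctss, is also in an immune list. Over the whole fibroblast list, 11 were below 0 and 4 at least 1.5-fold lower, against 49.8% and 0.758% of all genes. The median was -0.30, or -0.06 with the local background subtracted. The summed signal of these markers was 8521 in the AL heart and 9315 in the CR heart, and the median signal of a marker was 249 and 124. These sums are taken before normalization, so the brightness of the dyes enters them. Of 17 macrophage markers, 15 were below 0 and 6 at least 1.5-fold lower, against the same shares of all genes. Their median was -0.38 and their summed signals were 3121 and 1859. C1qa, a chain of complement C1q, read 653 and 392 (-0.79), and Fcer1g, the common gamma chain of Fc receptors, read 254 and 137 (-0.77). Cx3cr1, the fractalkine receptor, had a signal of 30.7 in the AL heart and was not well above the blank spots in the CR heart, where it was at least 1.45-fold lower. That bound sets the bright heart against the limit of detection, and with the local background subtracted the log2 value was -0.15. The part of cell composition in the collagen and immune values was not tested.

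The labelled tissue was checked against the markers of its muscle and of other organs. Of 14 cardiomyocyte markers with a probe, 13 were measured, and their summed signals were 284037 in the AL heart and 277808 in the CR heart. Of them 8 were below 0 and 4 at least 1.5-fold lower, against 49.8% and 0.758% of all genes. Their spots were bright, and of genes at or above the median signal 1.40% were at least 1.5-fold lower. The median was -0.07, or 0.09 with median centring. Atrial markers summed to 2483 and 5165, with Nppa as the 1 of 9 past 1.5-fold and a median of 0.04. The atrial marker Myl4 read 69.1 and 56.7 here, but 640 and 794 in the AL and CR hearts of the control array. Stard10 read 111 and 151 here and 304 and 255 there, and Tbx5 94.6 and 154 here and 77.9 and 132 there. Signals were not normalized between arrays, and whether the control hearts held more atrial tissue was not tested. Tcap did not pass the limit set by the blank spots in both hearts, and nor did Alb and Apoa1 of liver or Sftpa1, Sftpb, Sftpc and Scgb1a1 of lung. Of 11 liver and lung markers with a probe 5 did pass it: Apoa2, Ttr, Fgb, Ahsg and Ager. Endothelial markers had summed signals of 13554 and 15664 and a median log2 value of -0.10, which was 0.01 with the local background subtracted. Smooth muscle and pericyte markers summed to 4415 and 6829, largely through Des, and their median was -0.02. Of 12 T and natural killer cell markers with a probe, 5 passed that limit in both hearts. Cd3e, Cd3g, Cd8a and Cd8b1 did not pass it, while Cd3d, Cd247, Cd4 and Cd5 did, at signals of at most 31.6 units.

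Class II antigen presentation had the lowest list median in the processing used here. With normexp offset 0 macrophage markers were lower (-0.76 against -0.62), and in the authors' deposited ratios macrophage markers (-0.83) and neutrophil and mast cell markers (-0.92) were lower than class II (-0.69). All 5 measured members were below 0, with a median of -0.42. H2-Aa and Cd74 were more than 2-fold lower, and Ctss, the protease that trims Cd74, read 128 and 87.6 (-0.42). Ifi30, a reductase of the same compartment (-0.13), and Ciita, the master activator of class II genes (-0.08), stood near 0. The promoter of H2-Aa is shown because it holds the CCAAT box (CCAAT, either strand) to which the class II Y-box factor NF-Y binds. It spans chr17:34287824-34288073 on the minus strand in RefSeq's GRCm38.p6 table, 5' to 3' up to the gene's start, with the match in capitals 48 bases before that start.
H2-Aa: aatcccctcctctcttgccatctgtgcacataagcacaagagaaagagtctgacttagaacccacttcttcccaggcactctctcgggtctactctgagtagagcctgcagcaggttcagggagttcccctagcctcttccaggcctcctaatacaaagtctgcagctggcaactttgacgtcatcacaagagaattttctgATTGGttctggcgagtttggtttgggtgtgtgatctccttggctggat
Of 3 members of the list with a promoter in the table, H2-Aa alone had this motif. It was in a promoter of 39.4% of measured genes that have 1 and in 33.8% of all 32851 promoters.

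The wider immune lists were also lower. Of 32 genes of class I presentation and the interferon response, 26 were below 0 and 4 at least 1.5-fold lower. Over all genes these shares were 49.8% and 0.758%. The median of the list was -0.11. B2m, the light chain of class I, read 6252 in the AL heart and 3915 in the CR heart (-0.87). Ifi27 read 303 and 174 (-0.73), Iigp1 read 471 and 312 (-0.63) and Ifitm3 read 963 and 673 (-0.63), all genes induced by interferon. Among 38 cytokines, chemokines and adhesion genes, 30 were below 0, with a median of -0.14. S100a9, a calcium-binding protein of neutrophils and monocytes, read 91.1 and 28.4 (-0.85), and Ccl2, a chemokine that attracts monocytes, read 77.6 and 26.9 (-0.73). Nfkbia, the inhibitor of NF-kappaB, went the other way, at 536 and 722 (0.26). Il6, Tnf and Il10 were not above the blank spots in both hearts.

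Genes that respond to glucocorticoid had the highest median of the 50 lists here, and the sarcomere list was just above them with the local background subtracted (0.15 against 0.14). Of 26 measured members, 21 were above 0 and 7 were at least 1.5-fold higher, against 50.2% and 0.766% of all genes, and none was 1.5-fold lower. The median was 0.28. After Cebpb, the leading members were Arrdc2, an arrestin-like protein, at 49.4 and 180 (1.10), and Tsc22d3, the glucocorticoid-induced leucine zipper, at 381 and 889 (0.98). Map3k6, a stress-responsive kinase, read 46.5 and 121 (0.73), with 0.16 after subtraction of the local background. Arrdc2, Tsc22d3 and Map3k6 were brighter in the CR heart under every processing tried, which the naming rule for list members requires.

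A glucocorticoid receptor half-site pair, written GNACANNNTGTNC, was searched on both strands of the 250 bases before the start. It was present in 3 of the 24 members with a promoter in the table (Map3k6, Mt1 and Sgk1). Of measured genes with a promoter there, 0.277% had it. A match is only a match of letters. The promoter of Map3k6 is shown because the gene was among those at least 1.5-fold higher. It spans chr4:133240568-133240817 on the plus strand (GRCm38.p6, RefSeq), with the motif in capitals 181 bases before the start.
Map3k6: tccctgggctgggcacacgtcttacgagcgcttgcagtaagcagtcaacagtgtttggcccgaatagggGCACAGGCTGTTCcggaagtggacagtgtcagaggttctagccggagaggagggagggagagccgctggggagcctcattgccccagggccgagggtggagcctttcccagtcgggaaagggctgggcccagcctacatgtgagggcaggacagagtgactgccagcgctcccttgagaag

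FOXO targets and muscle atrophy genes leaned the same way. Of 25 measured members, 20 were above 0 and 4 at least 1.5-fold higher, against 50.2% and 0.766% of all genes. The median was 0.09. Sesn1 led them. Fbxo32, the muscle ubiquitin ligase atrogin-1, read 167 and 379 (0.87), Pik3ip1, an inhibitor of PI3 kinase, read 217 and 457 (0.81), and Irs2, an insulin receptor substrate, read 45.9 and 112 (0.67). The FOXO motif GTAAACA, on either strand, was in a promoter of 2 of 21 members (Trim63 and Txnip). Of measured genes with a promoter in the table, 2.77% had it. The insulin and IGF list as a whole stood at a median of 0.03, with Irs2 its 1 member past 1.5-fold.

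**Figure D4:**
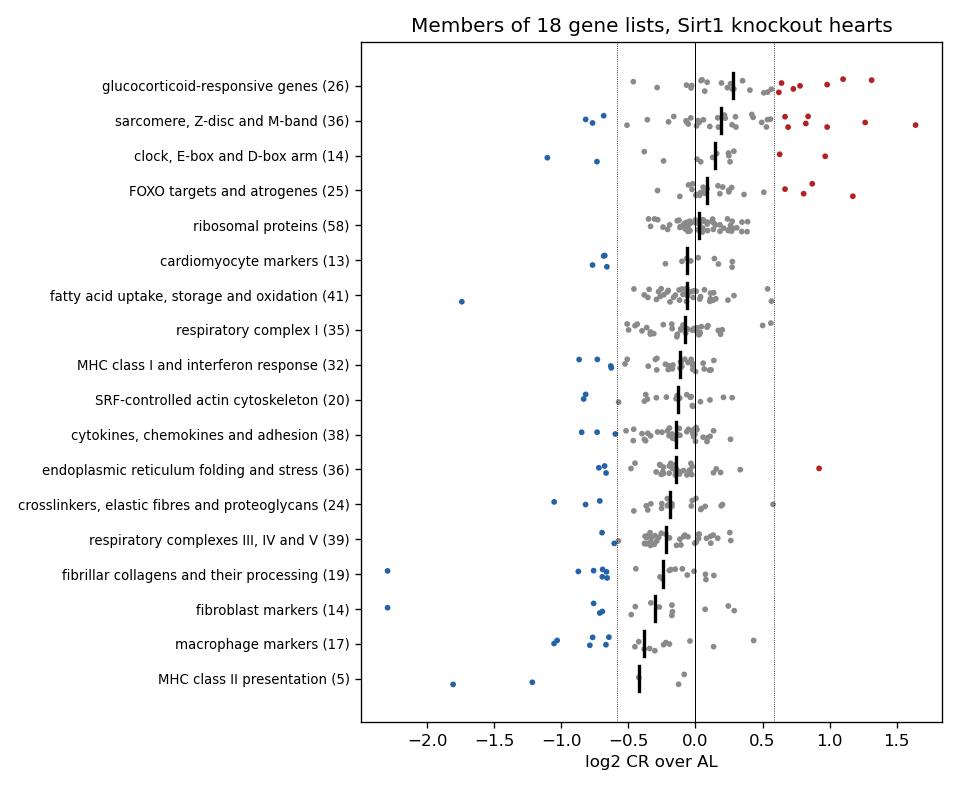
Each point is a measured member of 1 of 18 gene lists, placed by its log2 CR over AL value on the knockout array; the number measured stands in brackets. Black bars mark list medians, dotted lines 1.5-fold, red points genes at least 1.5-fold higher and blue points genes at least 1.5-fold lower. Medians run from -0.42 for class II presentation to 0.28 for glucocorticoid-responsive genes.

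The immediate early genes, which serum and stretch induce within minutes, split. Of 24 measured members, 15 were above 0 and 9 below, with a median of 0.05. Past 1.5-fold lay 3 each way, against 0.766% of all genes upwards and 0.758% downwards. Jun read 385 and 724 (0.70) and Klf6 read 303 and 548 (0.64). Egr1, Junb (151 and 78.3, -0.69) and Fos (51.3 and 15.3, -0.63) lay on the lower side. Thus partners of the same AP-1 factor family, Jun against Fos and Junb, stood on opposite sides of 0.

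Actin cytoskeleton genes controlled by the serum response factor were mostly lower, with 16 of 20 below 0 and a median of -0.13. Actb, cytoplasmic actin, read 3470 in the AL heart and 2193 in the CR heart (-0.83), and -1.99 with the local background subtracted. Acta1, the skeletal isoform of the sarcomere that the foetal and loaded heart also uses, read 3218 and 2051 (-0.82). Tagln2, an actin-bundling protein, read 237 and 153 (-0.57), and Flna, the actin cross-linker filamin A, read 114 and 80.6 (-0.38). Actins are near-identical in sequence, and probe sequences were not used here, so a probe may read more than 1 of them. The CArG box to which this factor binds was in a promoter of 5 of the 16 members with 1 in the table (Acta1, Cnn2, Fhl2, Srf and Vcl). Of measured genes with a promoter there, 1.46% had it. The promoter of Acta1 is shown as the low member that holds it, at chr8:123894776-123895025 on the minus strand (GRCm38.p6, RefSeq), with the match in capitals 73 bases before the start.
Acta1: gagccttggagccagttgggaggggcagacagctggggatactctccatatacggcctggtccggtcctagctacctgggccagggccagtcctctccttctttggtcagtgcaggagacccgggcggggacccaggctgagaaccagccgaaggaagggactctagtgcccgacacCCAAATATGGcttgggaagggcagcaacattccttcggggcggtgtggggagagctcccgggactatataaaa

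Targets of YAP and TEAD, the load-sensing transcription pair, were spread about 0: 10 of 19 were above it and the median was 0.03. Only Ccn2 and Ankrd1 passed 1.5-fold, both upwards, against 0.766% of all genes. Igfbp3, a binding protein of IGF, had a value of 0.29, and Amotl2, an inhibitor of YAP, 0.15. The TEAD motif GGAATG, on either strand, was in a promoter of 5 of 14 members (Amotl2, Ankrd1, Axl, Ccn1 and Crim1). Of measured genes with a promoter in the table, 13% had it. Ankrd1 had it at 2 places, 210 and 123 bases before its start, in chr19:36119845-36120094 on the minus strand (GRCm38.p6, RefSeq), and its promoter is shown because the gene was at least 1.5-fold higher.
Ankrd1: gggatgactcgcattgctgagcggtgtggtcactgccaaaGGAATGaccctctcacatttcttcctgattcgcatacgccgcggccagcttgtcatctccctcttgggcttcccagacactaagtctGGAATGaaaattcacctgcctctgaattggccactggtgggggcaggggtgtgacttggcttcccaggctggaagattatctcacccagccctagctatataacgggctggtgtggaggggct

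Sarcomere, Z-disc and M-band genes had a median of 0.19, with 25 of 36 measured members above 0. With the local background subtracted 20 of the 36 were above 0 and the median was 0.15. Of the 36, 7 were past 1.5-fold higher and 3 past 1.5-fold lower, against 1.52% and 1.40% of genes at or above the median signal. At or above that signal lay 33 of the 36. On the higher side, besides Lrrc10 and Ankrd1, Myh7, the slow myosin heavy chain of the foetal and stressed ventricle, read 311 and 732 (0.98). Nexn, a Z-disc actin binder, read 1735 and 3582 (0.84), and Des, the intermediate filament desmin, read 2073 and 4230 (0.82). The 3 lower members were thin and thick filament genes: Acta1, Myl3 (1098 and 694, -0.77) and Myl2 (62366 and 46434, -0.69, with its AL spot near the scanner limit). Myh6, the fast myosin heavy chain that predominates in adult mouse hearts, read 12970 and 18405, a log2 value of 0.27 here and of 1.30 on the control array. Mb, the oxygen carrier myoglobin, read 53933 and 40305 (-0.68).

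Clock genes stood on both sides of 0. Of 14 genes driven through E-boxes and D-boxes, 10 were above 0 and 4 below, with a median of 0.14, which was 0.01 with the local background subtracted. Nampt, the rate-limiting enzyme of the NAD salvage pathway, read 463 and 1061 (0.97), and Tef, a D-box factor, read 256 and 464 (0.63). Dbp, from the same factor family as Tef, was lower (-1.11), as were Nr1d1, the repressor REV-ERBalpha, at 75.2 and 25.3 (-0.74), and Bhlhe40, an E-box repressor, at 149 and 110 (-0.38). In the arm driven by ROR elements, Arntl (BMAL1) had a value of -0.19, Clock -0.01, Nfil3 -0.06, Cry1 0.26 and Rora 0.48, although Nfil3 was 0.27 and Rora just below 0 with the local background subtracted. The E-box CACGTG was in a promoter of 4 of 11 members of the first list (Ciart, Cry1, Per1 and Tef). Of measured genes with a promoter in the table, 9.45% had it. The promoter of Tef, a member at least 1.5-fold higher, is shown as 1 of the 2 the table lists, at chr15:81802423-81802672 on the plus strand (GRCm38.p6, RefSeq), with the match in capitals 127 bases before the start.
Tef: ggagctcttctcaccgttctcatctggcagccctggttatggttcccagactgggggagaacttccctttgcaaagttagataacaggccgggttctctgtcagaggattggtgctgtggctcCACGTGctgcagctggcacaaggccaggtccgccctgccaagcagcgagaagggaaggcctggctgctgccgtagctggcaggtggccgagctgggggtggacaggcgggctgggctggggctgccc

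Sirtuins and enzymes of NAD metabolism were mostly a little higher, with 17 of 22 above 0, a median of 0.06 and Nampt as the 1 member past 1.5-fold. Nnt, the mitochondrial transhydrogenase, read 566 and 895 (0.47), and Sirt5, a mitochondrial desuccinylase, read 317 and 457 (0.35). Regulators of mitochondrial transcription had a median of 0.04. Pparg read 81.3 and 157 (0.57), Ppargc1a, the coactivator PGC-1alpha, read 407 and 662 (0.51), and Ppara read 211 and 325 (0.42). These 3 regulators were higher in the CR heart under every processing tried, which the naming rule for list members requires. None reached 1.5-fold in the processing used here, although Pparg did in others, at 0.67 with the local background subtracted.

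Fuel genes had list medians close to 0. Of 41 genes of fatty acid uptake, storage and oxidation, 27 were below 0 and the median was -0.07. Fabp3 was the 1 member past 1.5-fold, Cd36, the fatty acid transporter, had a value of -0.35 and Pnpla2, the triglyceride lipase, one of 0.29 (1.16 with the local background subtracted). Among 33 genes of glucose uptake and glycolysis 20 were above 0 and the median was 0.03. The 4 members named by size were lower: Pgam1 (2227 and 1277, -0.95), Hk2 (-0.49), Pgk1 (-0.40) and Aldoa (-0.38), all enzymes of glycolysis. The other probe of Aldoa went the other way, at 0.22. In the Krebs cycle list, 20 of 29 were above 0, led by Sucla2, a succinyl-CoA ligase subunit, at 1107 and 2006 (0.66).

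The last complexes of the respiratory chain leaned lower. Of 39 genes of complexes III, IV and V, 28 were below 0, with a median of -0.22, or -0.07 with the local background subtracted. Cox6a1 read 3932 and 2750 (-0.70), and Cox7c read 19549 and 15417 (-0.57), both subunits of cytochrome c oxidase, while Uqcrh of complex III had a value of -0.38. Complex I had 23 of 35 below 0 and a median of -0.08, which turned to 0.02 with the local background subtracted. Its named subunits stood on both sides: Ndufb4 0.56 and Ndufb11 0.50 against Ndufv3 -0.51 and Ndufs6 -0.50.

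Folding and stress genes of the endoplasmic reticulum were lower in 31 of 36 cases, with a median of -0.15. With the local background subtracted 18 were above 0 and 18 below, and the median was -0.01, so the lean of this list rested on the background correction. Manf, a secreted protein of endoplasmic reticulum stress, read 518 and 321 (-0.72), Sec61b, a translocon subunit, read 409 and 259 (-0.67), and Pdia6, a disulphide isomerase, read 780 and 518 (-0.68, or -0.18 with that subtraction). Herpud1, a component of protein disposal from this organelle, went against its list, at 649 and 1426 (0.92).

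Other protein quality and antioxidant lists stood close to 0. Autophagy and lysosome genes had a median of 0.03 over 43 members, with Optn, an autophagy receptor, at 0.53, Pink1, a mitophagy kinase, at 0.44, Ctsl at 0.45 and Ctsb, likewise a lysosomal protease, at -0.49. The heat shock chaperones had a median of 0.01 over 33 members and the proteasome list 0.03 over 38. Among 39 NRF2 targets and antioxidant enzymes (median -0.03), Gsta3, a glutathione transferase, read 120 and 328 (1.04), while Ftl1, the ferritin light chain, had a value of -0.60 and Prdx1, a peroxidase, one of -0.52. ATF4 targets were balanced, with 11 of 23 above 0, and Atf5, a factor of that response, read 151 and 82.0 (-0.65). The 58 measured ribosomal protein genes had a median of 0.03 and none passed 1.5-fold either way.

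Calcium handling genes were below 0 in 20 of 29 cases, with a median of -0.08. The 2 past 1.5-fold lower, against 0.758% of all genes, were Rrad and Atp2a2, the calcium pump SERCA2. Atp2a2 lies outside the naming rule and was picked after its values were seen. The value of Atp2a2 was -0.66, and both genes were above 0 with the local background subtracted. Fkbp1a, a ryanodine receptor stabiliser, had a value of -0.45 and Hrc, a calcium-binding protein of the sarcoplasmic reticulum, one of -0.42. In the list of natriuretic peptides and hypertrophy genes, 17 of 26 were above 0 and the median was 0.02. Its 1 member past 1.5-fold was Nppa, the atrial natriuretic peptide, which falls outside the naming rule and was picked after its values were seen. Nppa read 1997 and 4577 (0.99), but its value was -0.16 with the local background subtracted. Corin, the protease that activates these peptides, read 811 and 1293 (0.49) and Agtr1a, the angiotensin receptor, 368 and 272 (-0.47). No ion channel or connexin gene passed 1.5-fold, and Kcnip2, a subunit of the transient outward potassium channel, had a value of 0.35. Among angiogenic and endothelial receptors only Aplnr passed 1.5-fold. Kdr, the main VEGF receptor, read 335 and 261 (-0.40).

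Set beside the control hearts, 21 of the 24 ranked genes had a value of the same sign on the control array. The ranking was made on the knockout array, so larger values there follow from the choice of genes. Ankrd1 was alike on both arrays, at 1.27 and 1.23. Cirbp stood at 1.17 in the knockout and 0.93 in the control hearts, H2-Aa at -1.81 and -1.31, and Fabp3 at -1.74 and -1.30. The AL spot of Fabp3 lay close to the scanner limit on both arrays, at signals of 64275 and 65136.5. Col3a1 stood at -2.30 and -0.86, Lrrc10 at 1.64 and 0.54, and Egr1 at -1.49 and -0.09. The AL and CR signals of Egr1 were 197 and 37.9 on the knockout array, and 31.85 and 34.3 on the control array. With 1 array per genotype the differences between these pairs of log2 values have no test.

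**Figure D5:**
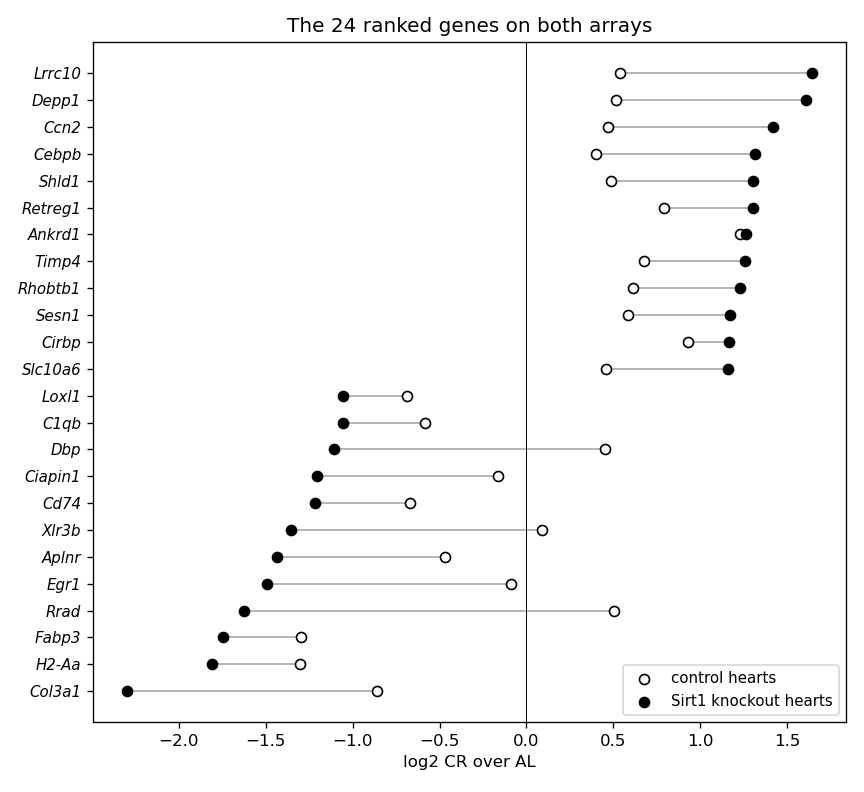
The log2 CR over AL value of each ranked gene is drawn for the Sirt1 knockout hearts (filled) and the control hearts (open), 1 array each and no error. The pairs of Ankrd1 nearly coincide, whereas those of Rrad, Xlr3b and Dbp lie on opposite sides of 0.

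Lists can be placed side by side in the same way. The glucocorticoid-responsive list had medians of 0.28 in the knockout and 0.20 in the control hearts, with 7 members and none past 1.5-fold higher. For FOXO targets the medians were 0.09 and 0.14, with 4 members past 1.5-fold on each array. The fibrillar collagen and processing list had medians of -0.25 and -0.07, macrophage markers -0.38 and -0.16, and class II presentation -0.42 and -0.07. Class II presentation had 2 members at least 1.5-fold lower on each array, H2-Aa and Cd74. Complexes III to V had -0.22 and -0.26, the sarcomere list 0.19 and 0.40. Other lists had medians of opposite sign. Among them were class I and interferon genes at -0.114 and 0.056 and fatty acid genes at -0.067 and 0.087. NRF2 targets had -0.026 and 0.080, and ATF4 targets -0.008 and 0.175. The difference between arrays was not tested for any list. Over the 11698 genes measured on both arrays, the control array had 10 (0.0855%) past 2-fold higher and 3 (0.0256%) past 2-fold lower. At 1.5-fold it had 104 (0.889%) and 43 (0.368%). The knockout counts above are over 12142 genes, a different set. The positive-control spots had log2 SDs of 0.0447 and 0.0582 on the control array, against 0.0731 and 0.0883 on the knockout array.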

How the data were processed

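The authors deposited scanner files that hold, per the file headers, a median spot intensity for each dye. Scanner software is not given in the sources used here, nor is a genome build. The knockout array was corrected with normexp (offset 50) on spot signals without local background, then normalized by loess (span 0.3, 4 iterations) with limma 3.58.1 in R 4.3.3. Control and flagged spots were left out of the loess fit. The procedure was tested on simulated data. A probe counted as measured above the mean of 2736 blank spots (5% trimmed at each end) plus 2 SD in both channels: 38.2 units for AL and 80.9 for CR, with 77.6% and 74.0% of probes above them. The dimmest measured probes read 3.28 (AL) and 5.27 (CR) above the blank mean, and the brightest unmeasured 3.28 and 5.25.

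The brightest probe stood for a gene. Of 23473 probes, 16631 carried 1 symbol and 6842 none. In GRCm38.p6, 12622 symbols were current, 3947 were updated and 62 did not match.

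The authors' deposited log2 ratios were rebuilt as log2 of CR over AL above the blank mean, less a constant of 0.144: 16554 of 16555 values lay within 0.001. Their median is 8.08e-05, so scale, centring and direction are known.

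Named genes were Sirt1, the 12 highest and 12 lowest among 5963 genes with signals no lower than the median, up to 4 members of each of 50 lists (35 pathways, 15 cell types) with 1 sign under every processing, opposing members past 1.5-fold, small lists and up to 3 bounds each way. Members, lists and motifs were chosen with earlier results of these data known. With 1 heart per regime no test was run. Precision is limited by the number of arrays. Alternatives were the local background subtracted, normexp offset 0, median centring, loess within blocks, the deposited ratios, no detection filter, brighter genes only and the mean of a gene's probes. Promoters came from RefSeq (GRCm38.p6).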

Additional observations from a re-analysis of the deposited data

Results flagged for a closer look

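For 6 named genes the CR heart was at least 1.5-fold below the AL heart on the knockout array and above it on the control array by a log2 value over 0.0883, the larger SD of the positive-control spots. Other named genes of opposite sign on the arrays did not pass both limits and are left out. The difference was not tested, since each genotype has 1 array. Rrad stood at -1.63 in the knockout and 0.50 in the control hearts, Xlr3b at -1.35 and 0.09, and Dbp at -1.11 and 0.45. Acta1 stood at -0.82 and 0.56, Atf5 at -0.65 and 0.38, and Iigp1 at -0.63 and 0.28. The control value of Xlr3b, 0.090, barely passed the limit, on signals of 24.9 and 37.7. AL signals on the knockout and control arrays were 1814 and 661 for Rrad, 333 and 24.9 for Xlr3b and 1456 and 876 for Dbp. They were 3218 and 463 for Acta1, 150.8 and 145.5 for Atf5 and 471 and 422 for Iigp1. Signals were not normalized between arrays, and the share of the AL hearts in these oppositions was not tested. The knockout value of Rrad was 0.43 with the local background subtracted, so its opposition does not hold under that processing.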

How the results depend on the processing

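Counts past a fold depended on the background correction. With the local background subtracted, 86 genes stood past 2-fold higher and 33 past 2-fold lower, and 249 and 174 at 1.5-fold. With normexp offset 0 these counts were 49, 66, 383 and 424, and in the authors' deposited ratios 207, 159, 954 and 729. Higher genes made up 59.4% of the 2-fold calls in the main processing, 72.3%, 42.6% and 56.6% in these 3, 64.9% with median centring and 60.6% with loess within blocks. Of the 19 higher and 13 lower genes, 10 and 7 were shared with the local background subtracted, all with offset 0, median centring and the deposited ratios, and 18 and 12 with loess within blocks. Of 203 named genes, Rrad alone reversed among values past 1.5-fold (0.43 with the local background subtracted), and the cause was not tested. Members named by size within a list had to keep 1 sign under every processing, so their agreement follows from that rule. Nppa and Atp2a2, which lie outside the rule, also changed sign with the local background subtracted. Of 50 lists, 15 had medians at least 0.1 from 0 (12 lower, 3 higher), and all 15 kept their sign in every processing that gave a value, while 18 of the other 35 changed sign in some. No paired analysis was possible because each genotype has 1 array, and no replicate could be left out. Probes near the blank spots have little signal over background, and 637 lower and 476 higher genes could only be bounded.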

Other observations

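Genes seen above the blank spots in 1 knockout heart only had small bounds. Spon2, a secreted matrix protein, was at least 1.31-fold lower and Ifi44, an interferon-induced gene, at least 1.24-fold lower in the CR heart. Tent5b, Cd209c and Tas2r107 were at least 1.18-fold, 1.17-fold and 1.16-fold higher. Each bound is the brighter heart against the limit of detection of the other. With the local background subtracted all 5 log2 values were smaller than these bounds, at -0.14 for Spon2, -0.02 for Ifi44, 0.04 for Tent5b, 0.04 for Cd209c and 0.03 for Tas2r107.

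Among marker lists with few measured members, the 5 B cell markers were all below 0 (Cd79b -0.35, Ms4a1 -0.15, Cd79a -0.07, Cd22 -0.03 and Ighm -0.01), at signals of at most 92.8 units. With the local background subtracted 3 of the 5 were above 0 and their median was 0.03. Tfrc, the transferrin receptor, read 231 in the AL heart and 144 in the CR heart (-0.60). All 5 measured Schwann and neuronal markers were above 0, from 0.01 to 0.16, and 4 of the 5 with the local background subtracted. Ahsg, a plasma protein made in liver, read 51.2 and 103 (0.51), while the other 4 measured liver and lung markers lay between -0.11 and 0.09.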
